A study of Mus musculus with 10 samples.

Results

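Collagen genes were taken from RNA-seq of whole tumours grown in mice from 4T1, a mouse mammary carcinoma line. They were the rows of the deposited table whose Ensembl identifier carries, in the GENCODE M21 annotation, a symbol made of Col, a type number, the letter a and a chain number. Of 18047 genes listed, 34 met this rule, and they were sorted by the kind of polymer they build into 10 fibrillar collagens, 7 basement membrane collagens and 17 others. The annotation holds 44 such symbols. Col2a1, Col4a3, Col6a4, Col9a1, Col9a2, Col13a1, Col19a1, Col22a1, Col25a1 and Col26a1 were not analysed here. All 34 genes passed the filter of a mean of at least 10 normalized counts.

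Collagens are secreted proteins in which 3 chains wind into a triple helix. The fibrillar types, led by type I and type III, pack into the tension-bearing fibres of connective tissue, while type IV chains form the sheet-like network under epithelia and around vessels. Other families decorate fibrils, anchor basement membranes or span the cell membrane. In carcinomas, fibroblasts make most of the fibrillar collagen, vessel wall cells contribute type IV chains, and a dense collagen matrix is known as one barrier between leukocytes and tumour cells.

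The tumours came from 4T1 cells that were wild type (WT, 5 libraries) or had the gene Trop2 knocked out (KO, 5 libraries). All tumours had grown in BALB/c mice for 3 weeks before they were frozen and sectioned. Both groups carry the treatment label in vivo growth and the batch label 1. The animals' age and sex, and whether the knockout line was 1 clone, are not given in the sources used here. No label says which animal a library came from. The p-values therefore measure the spread between these libraries, which may be technical. The series title asks about immune exclusion, and KO against WT asks here whether the collagen matrix genes differ with the knockout.

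Reads per library ran from 8609756 to 19934428, and every value is in normalized counts, that is, reads divided by the library's size factor. The library names of KO5 and WT1 to WT4 start with RESUB, which is left unexplained in the labels, and WT2 and WT5 share the library number 170. Some libraries stood apart in markers of neighbouring tissue. The 7 keratinocyte markers summed to between 21.0 and 108 normalized counts in the KO libraries and between 64.8 and 6711 in WT, where WT2, WT3 and WT5 were the high ones. DESeq2 called 4 of the 7 keratinocyte markers at an adjusted p under 0.05, against 0.673% of all genes. All 7 were fitted lower in KO with an unadjusted limma p under 0.05, against 3.67% of all genes. The 7 skeletal muscle markers summed to between 458 and 5181 in KO and between 218 and 100471 in WT, with WT2 highest. The 6 carcinoma markers were all fitted lower in KO (median -0.76, 5 of 6 at that level), with sums of 12916 to 17650 against 17181 to 29132. Myofibroblast and Schwann markers had medians of -0.34 over 5 genes and -0.38 over 5, with 0 and 1 at that level. The genes Pdgfra, Pdgfrb, Fap, Dcn, Lum and Thy1, markers of fibroblasts, were read in every library. In bulk tissue, fewer cells of a type and less RNA per cell cannot be told apart.

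The mean share of reads taken by collagen genes differed between the groups by less than the SD within either. They held 1.04%, 0.779%, 0.729%, 0.812% and 0.473% of all reads in KO1 to KO5 (mean 0.767% ± 0.204, SD, n = 5). The share was 1.06%, 0.450%, 0.659%, 1.14% and 0.797% in WT1 to WT5 (0.822% ± 0.285). The lowest and highest values were both in WT, in WT2 (95% Wilson interval 0.447% to 0.454%) and WT4 (1.14% to 1.15%), and these intervals cover counting error only. KO5 lay close to WT2 at the low end. Of the collagen reads, fibrillar genes took 59.3% ± 4.01 in KO and 61.9% ± 7.27 in WT. Basement membrane genes took 11.7% ± 2.76 and 11.04% ± 2.79, and the others 29.0% ± 3.66 and 27.1% ± 6.76.

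Type I and type III chains were the most abundant collagens per length. Col1a1, the main chain of type I, stood at 2513 ± 875 normalized counts per kilobase of annotated exon in KO and 3412 ± 2575 in WT. Col3a1, the single chain of type III, stood at 2146 ± 715 and 2247 ± 847, and Col1a2, the second chain of type I, at 950 ± 204 and 1057 ± 463. The order of Col1a1 and Col3a1 depends on the length used: the ratio of their levels over all libraries was 1.35 by annotated exon and 0.846 by the principal transcript. Next came Col12a1, which decorates fibrils, at 834 ± 202 and 778 ± 367, and Col4a1, the main type IV chain, at 711 ± 210 and 717 ± 365. Col1a1 and Col3a1, and Col1a2 and Col12a1, differed by less than their SD over libraries. So did all neighbours from Col12a1 down to Col5a3, except 2 pairs in KO. These were Col5a2 and Col4a2, at 625 ± 93.5 and 377 ± 150, and Col7a1 and Col6a2, at 288 ± 123 and 159 ± 29.8. A gap separated Col5a3, at 129 ± 52.3 in KO, from Col4a5, at 31.4 ± 11.8, and the lowest were Col6a5 and Col4a6, at 0.912 ± 0.587 and 1.98 ± 0.799 in KO.

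**Figure D1:**
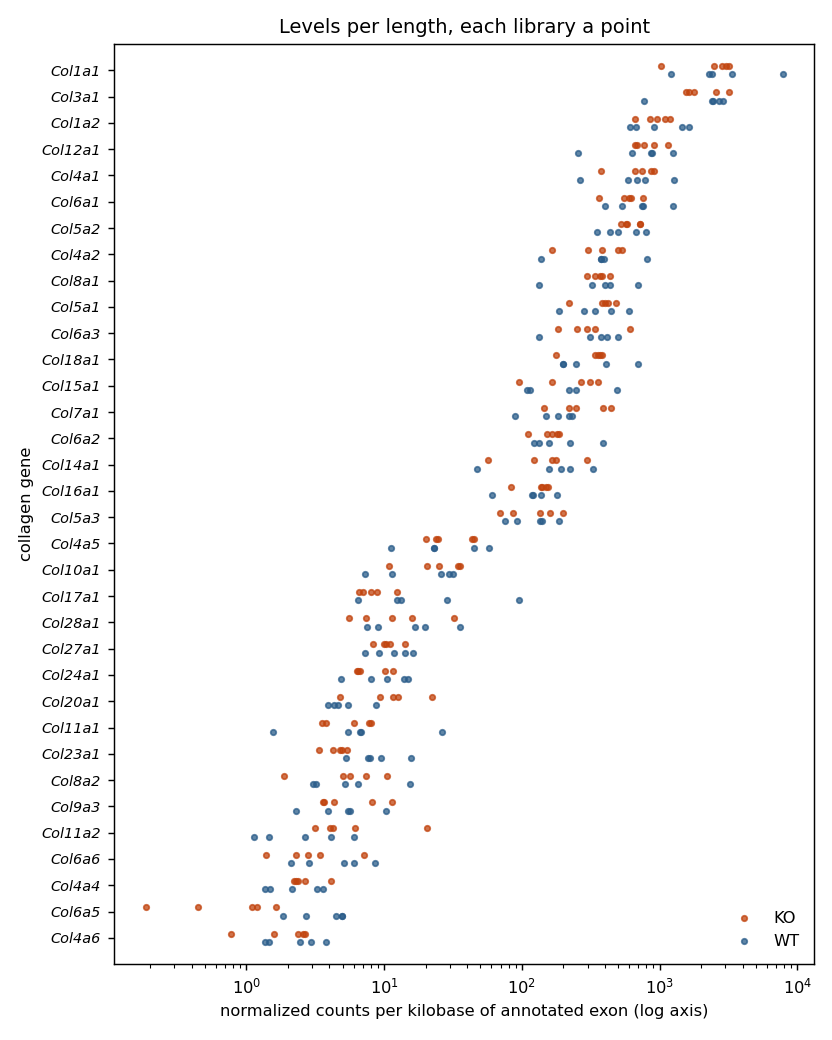
Normalized counts per kilobase of annotated exon (log axis) for the 34 collagen genes, with each library as a point, KO in orange and WT in blue, and genes sorted by their mean. The KO and WT points of nearly all genes intermingle, and a gap of levels lies between Col5a3 and Col4a5.

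No collagen gene passed the test across all genes in the main fit. In limma, 0 of 34 had an adjusted p under 0.05, where 0.00556% of the 17975 genes tested did (1 gene), and the lowest adjusted p among collagens was 0.418. At an unadjusted limma p under 0.05 there were 4 of 34, Col20a1 higher in KO and Col6a5, Col23a1 and Col17a1 lower, against 6.49% of all genes (2.82% higher and 3.67% lower). edgeR on the recovered reads called 0 of 34 (0.00556% of all genes), with 6 at an unadjusted p under 0.05, against 7.32% of all genes (2.61% higher and 4.71% lower). DESeq2 called Col6a5 alone, as lower, where it called 0.673% of all genes and 0.529% as lower. DESeq2 gave an unadjusted p under 0.05 for the same number of collagens, 6, against 7.84% of all genes (2.88% higher and 4.96% lower). The fitted difference was above 0 for 17 collagens and below 0 for 17, with a median of -0.014 on the log2 scale, against 49.0% above 0 and a median of -0.007 over all genes tested. For 17 of the 34 genes the 95% interval of the difference lay within 1 log2 unit of 0, a 2-fold change either way. For the rest a change of that size is not bounded by these libraries.

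Collagen levels varied more between libraries of a group than those of most genes did. The median SD within a group was 0.65 on the log2 scale for the 34 collagens and 0.44 for all genes tested. At means of 500 normalized counts and above it was 0.64 for 18 collagens and 0.35 for 5282 genes. Many collagens rose and fell in the same libraries. WT4 held the highest value of 11 collagens, among them 5 of the 7 of the basement membrane, and WT1 that of 7. WT2 held the lowest value of 14 and KO5 that of 9.

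**Figure D2:**
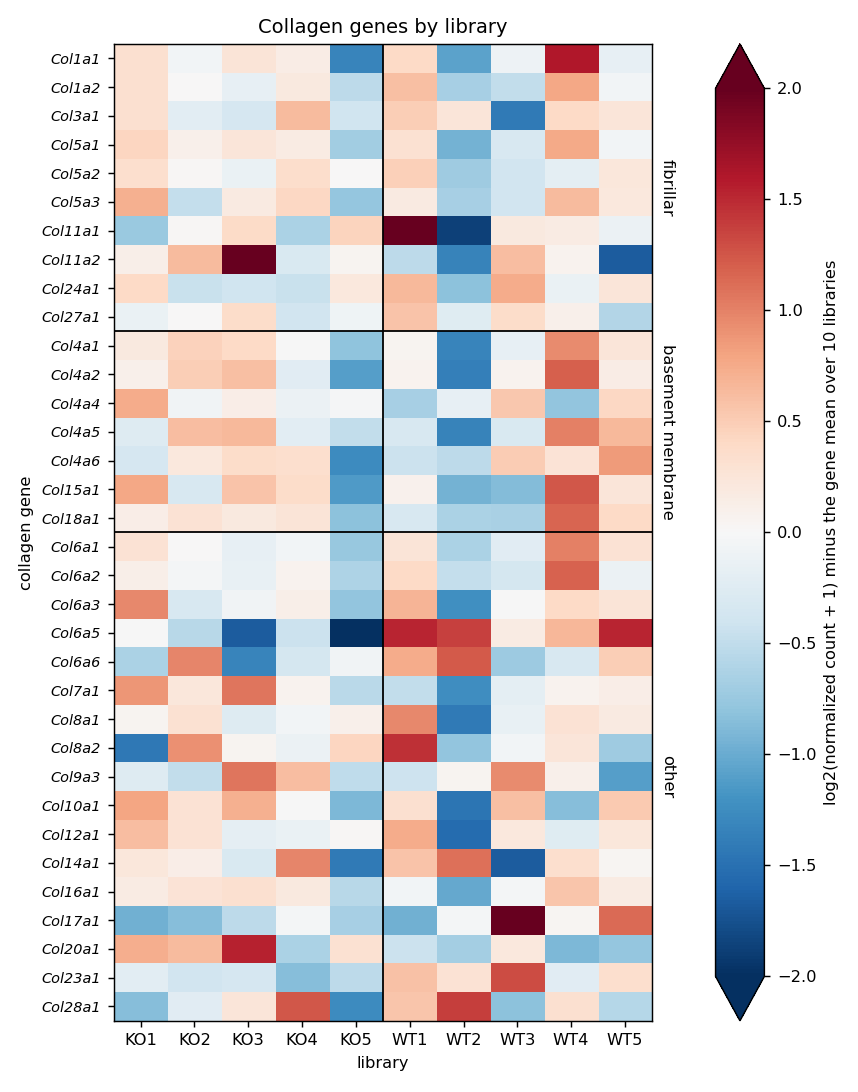
Each collagen gene (rows, grouped by family) in each library (columns), coloured by log2(normalized count + 1) minus the mean of that gene over the 10 libraries. WT2 and KO5 are blue and WT4 is red for many genes of all 3 families. Col6a5 is pale to red in the WT libraries, palest in WT3, and pale to blue in the KO libraries.

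The RESUB prefix overlaps in part with the genotype, and the fitted differences depended on how it was handled. Mean log2 levels over all collagens ran from 8.18 in WT2 to 9.11 in WT4 among prefixed libraries. Among the rest they ran from 8.79 in KO4 to 8.93 in KO3. The median difference over all collagens was -0.014 in all 10 libraries and -0.32 with the prefix as a term. Among the prefixed libraries, which include a single KO library (KO5), it was -0.61. Among the rest, which include a single WT library (WT5), it was -0.041. It was -0.45 without WT2, WT3 and WT5, which were high in keratinocyte markers. The WT group then held WT1 and WT4, 2 libraries high in collagen, and 6 of 34 collagens had an unadjusted limma p under 0.05, 5 of them lower, against 6.87% of all genes (3.0% lower). In that fit 0 collagens passed after adjustment.

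**Figure D3:**
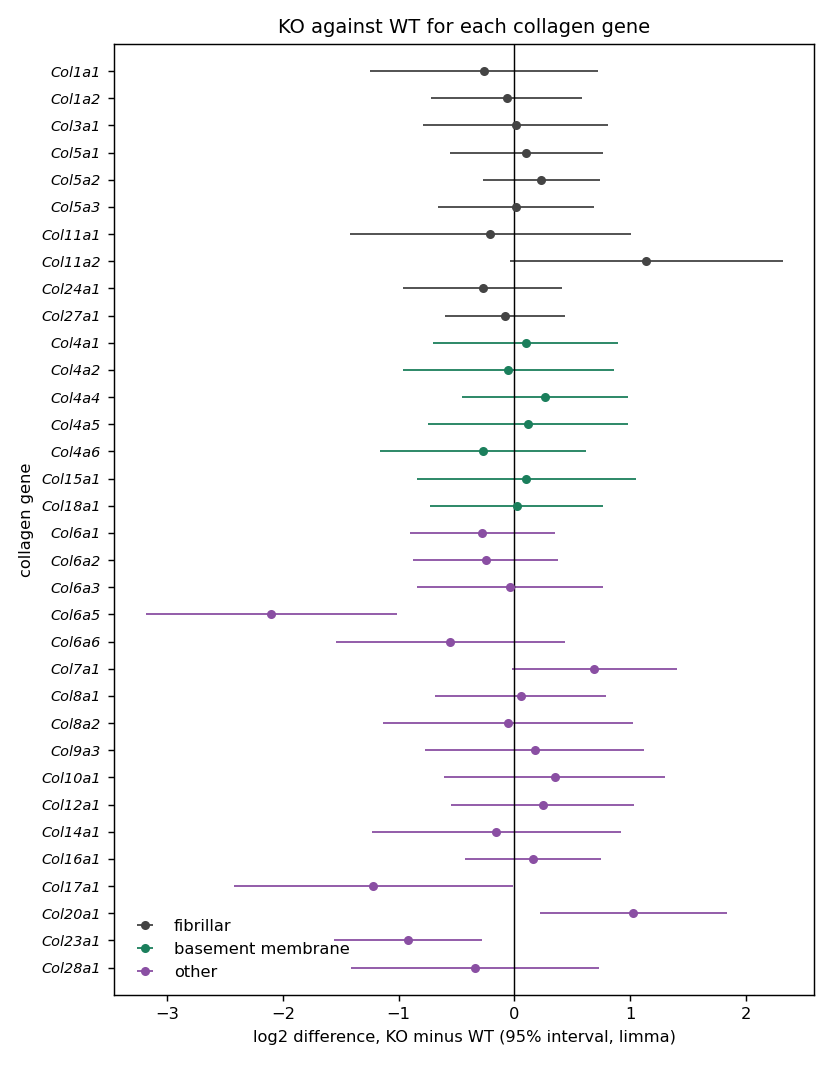
Fitted log2 difference of each collagen gene, KO minus WT, with its 95% interval from limma, coloured by family. Of the 34 intervals, those of Col6a5, Col17a1 and Col23a1 lie below 0 and that of Col20a1 above, before adjustment over all genes, and the abundant fibrillar and type IV chains lie around 0.

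Of the fibrillar collagens, all but Col11a2 differed between KO and WT by less than the SD of their WT libraries on the log2 scale. Of the 10, 5 were fitted higher and 5 lower, 0 had a limma adjusted or unadjusted p under 0.05, 0 passed in edgeR or DESeq2, and the median was -0.029. In 9 of the 10 the difference was under 0.5 in size. The median of fibrillar collagens was -0.18 once the prefix was fitted too, and -0.30 and 0.068 in prefixed and unprefixed libraries alone. Without WT2, WT3 and WT5 it was -0.42.

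Col1a1 (chromosome 11, 94936224 to 94953042, plus strand, GRCm38) was at 20893, 16240, 20034, 18589 and 6713 normalized counts in KO1 to KO5. In WT1 to WT5 it was at 22180, 7986, 15633, 51256 and 14921. Its highest library, WT4, stood 7.64 times above its lowest, KO5. WT1 and WT4 lay above every KO library and KO5 below every WT library, while KO1 to KO4 lay inside the WT range. The difference was -0.26 ± 0.46 (SE, 95% interval -1.25 to 0.72), and it was 0.11 without WT4 and 0.034 without KO5. Fitting the prefix too gave -0.60 for Col1a1, prefixed and unprefixed libraries alone gave -1.53 and 0.34, and leaving out WT2, WT3 and WT5 gave -1.14.

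Col1a2 (chromosome 6, 4504814 to 4541544, plus strand) was at 14725, 11943, 10530, 13550 and 8288 in KO and at 17979, 7514, 8408, 20360 and 11399 in WT, with a difference of -0.068 ± 0.30. The KO values lay inside the WT range. Col3a1 (chromosome 1, 45311538 to 45349706, plus strand) was at 25272, 17453, 15903, 31389 and 15302 in KO and at 28404, 23918, 7592, 26629 and 23717 in WT. WT3 alone was low in Col3a1, and the other 9 libraries lay within 15302 to 31389. The difference of Col3a1 was 0.0097 ± 0.37 (95% interval -0.79 to 0.81), and without WT3 it was -0.34.

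The promoter windows of Col1a2 and Col3a1, both among the most abundant collagens, are shown with matches to short motifs marked. The sequences are from RefSeq (build GRCm38.p6), from 250 bases before to 50 after the start, and 29 of the 34 genes matched an entry. Col1a1, Col5a2, Col9a3, Col12a1 and Col14a1 were without one. Capitals mark matches, on either strand, to the TATA box letters TATAAA. They also mark the letters CCAAT of the box of that name, and the GC box letters GGGCGG. Col1a2 lies at chr6:4505368-4505667 and Col3a1 at chr1:45311288-45311587, both on the plus strand.
Col1a2: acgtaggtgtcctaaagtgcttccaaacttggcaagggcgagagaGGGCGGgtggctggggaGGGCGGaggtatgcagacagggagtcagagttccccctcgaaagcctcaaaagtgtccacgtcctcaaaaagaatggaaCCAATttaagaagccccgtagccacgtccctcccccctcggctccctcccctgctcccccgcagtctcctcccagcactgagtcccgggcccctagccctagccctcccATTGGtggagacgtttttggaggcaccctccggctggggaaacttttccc
Col3a1: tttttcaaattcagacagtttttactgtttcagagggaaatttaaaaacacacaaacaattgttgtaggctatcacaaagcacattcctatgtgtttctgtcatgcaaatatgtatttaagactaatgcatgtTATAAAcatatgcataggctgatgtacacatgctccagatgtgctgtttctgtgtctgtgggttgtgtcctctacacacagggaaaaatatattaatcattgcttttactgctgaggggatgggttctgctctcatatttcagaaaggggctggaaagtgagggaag
The window of Col1a2 held 2 matches to CCAAT, 2 to GGGCGG and 0 to TATAAA, and that of Col3a1 held 1 match to TATAAA and 0 to the others. Over all 32851 windows of this length, 13.6% held TATAAA, 37.4% CCAAT and 35.7% GGGCGG. Among the 29 collagens they were found in 4, 10 and 19. A match describes letters only, wherever it lies in the window, and 0 matches does not show that a promoter lacks an element. The window of Col1a2 lies inside the annotated gene, which starts at 4504814, so the RefSeq and annotated starts of this gene differ.

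Type V chains set the diameter of type I fibrils. Col5a2, which lies next to Col3a1 on chromosome 1 (45374321 to 45503282, minus strand), was at 6925, 5602, 4989, 6958 and 5490 in KO and at 7633, 3361, 4195, 4797 and 6427 in WT (0.23 ± 0.23, 95% interval -0.27 to 0.74). The 5 KO values lay inside the WT range. Col5a1 and Col5a3 differed by 0.10 and 0.016.

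The minor fibrillar chains were low. Col11a2 (chromosome 17, 34039437 to 34066685, plus strand), a chain of the cartilage type XI, was at 29.4, 42.2, 141, 21.5 and 27.9 in KO and at 18.3, 10.02, 41.8, 28.2 and 7.75 in WT. KO3 was far above the other KO libraries, which lay in or near the WT range. Its difference was 1.14 ± 0.55 (limma adjusted p = 0.779), and without KO3 it was 0.70. The SD on the log2 scale was 1.05 in KO and 0.95 in WT. Its unadjusted p was 0.048 in edgeR and 0.026 in DESeq2, where 7.32% and 7.84% of all genes had one under 0.05. Col24a1, another minor chain (chromosome 3, 145292472 to 145552011, plus strand), was at 88.1, 48.8, 50.6, 49.1 and 77.7 in KO and at 105.5, 37.3, 113, 60.8 and 79.8 in WT (-0.27 ± 0.32). Its KO values lay inside the WT range. Col27a1 (-0.082) and Col11a1 (-0.21) were at 140 and 74.2 on average in KO and 152 and 119 in WT. The WT mean of Col11a1 rests on 334 in WT1, against 20.04 to 86.4 in the other WT libraries. Cartilage and bone markers were sparse: 3 of the 8 chosen were among the genes tested, and none had a limma p under 0.05.

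The 7 basement membrane collagens were 5 type IV chains and the proteoglycan-like Col15a1 and Col18a1. In KO, 5 of them were fitted higher and 2 lower (median 0.096). In this group 0 had a limma adjusted or unadjusted p under 0.05 or passed in edgeR or DESeq2. All 7 differences were under 0.5 in size. The median of basement membrane collagens was -0.44 once the prefix was fitted too, and -0.71 and -0.17 in prefixed and unprefixed libraries alone. Without WT2, WT3 and WT5 the median of this family was -0.41.

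Col4a1 (chromosome 8, 11198423 to 11312826, minus strand) was at 5594, 6756, 6444, 4907 and 2822 in KO and at 5086, 1957, 4400, 9468 and 5830 in WT. Col4a2 (chromosome 8, 11312805 to 11449287, plus strand) was at 2525, 3296, 3550, 1996 and 1097 in KO and at 2474, 905, 2463, 5391 and 2609 in WT. Both were highest in WT4 and lowest in WT2, and their differences were 0.096 ± 0.37 and -0.053 ± 0.42. These chains join in a single helix, and their genes start 21 bases apart in opposite directions, so that 22 exonic bases are shared and reads there cannot be assigned without strand.

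The ratio of Col4a1 to Col4a2 stayed between 1.76 and 2.57 in all 10 libraries, while Col4a1 itself ranged over 4.84 times and Col4a2 over 5.96 times. It was 2.22 ± 0.306 in KO and 1.999 ± 0.218 in WT (two-sided exact permutation p = 0.230, 0.836 adjusted over 4 chain ratios, n = 5 each, where 0.0079 is the smallest p possible). The ratio of Col6a1 to Col6a2, chains of type VI, was 1.90 ± 0.173 and 1.95 ± 0.355 (exact permutation p = 0.841, 0.841 adjusted). The genes of these 2 chains start 102538 bases apart, and their ratio ran from 1.70 in WT4 to 2.52 in WT5. That of Col1a1 to Col1a2 was 1.37 ± 0.387 and 1.596 ± 0.595 (exact permutation p = 0.556, 0.836 adjusted), and WT4 was highest at 2.52 and KO5 lowest at 0.810. Col3a1 to Col1a1 ranged most, from 0.486 in WT3 and 0.520 in WT4 to 2.99 in WT2 (1.41 ± 0.584 and 1.37 ± 1.02, exact permutation p = 0.627, 0.836 adjusted).

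The shared start of Col4a1 and Col4a2 is shown, each gene in its own direction with the same motifs in capitals. Its part in their joint variation was not tested. The windows are chr8:11312777-11313076 (minus strand) for Col4a1 and chr8:11312555-11312854 (plus strand) for Col4a2, and they overlap by 78 bases.
Col4a1: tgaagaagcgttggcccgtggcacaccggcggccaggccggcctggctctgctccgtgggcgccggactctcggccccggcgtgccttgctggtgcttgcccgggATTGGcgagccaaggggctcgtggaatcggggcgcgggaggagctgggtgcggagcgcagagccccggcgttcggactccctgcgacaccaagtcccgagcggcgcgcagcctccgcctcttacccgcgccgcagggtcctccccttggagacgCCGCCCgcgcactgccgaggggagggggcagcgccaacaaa
Col4a2: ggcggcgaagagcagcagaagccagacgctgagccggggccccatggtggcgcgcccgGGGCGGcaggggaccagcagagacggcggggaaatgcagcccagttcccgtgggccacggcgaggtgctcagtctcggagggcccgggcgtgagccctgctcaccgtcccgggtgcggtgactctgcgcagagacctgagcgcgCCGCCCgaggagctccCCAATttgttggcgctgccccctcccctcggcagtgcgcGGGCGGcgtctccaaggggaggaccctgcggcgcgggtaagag
Both windows are rich in G and C (74.0% and 73.7%, against 37.7% for Col3a1 above). They held 1 match each to CCAAT, 1 and 3 to GGGCGG, and 0 to TATAAA.

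Col4a5 and Col4a6, chains of epithelial basement membranes whose genes also start head to head, 1309 bases apart on the X chromosome (141475385 to 141689234 and 141165403 to 141474076), were much lower. Col4a5 was at 161, 294, 301, 164.5 and 135 in KO and at 154, 75.6, 154, 387 and 301 in WT (0.12 ± 0.40). The groups overlapped in Col4a5. Col4a6 was at 12.6, 18.8, 21.1, 20.4 and 6.11 in KO and at 11.6, 10.9, 23.3, 19.5 and 29.9 in WT (-0.27 ± 0.41). Col4a4 (chromosome 1, 82448423 to 82586849, minus strand), a chain of kidney and other specialised membranes, was at 43.3, 24.4, 28.1, 23.5 and 25.3 in KO and at 15.8, 22.8, 37.9, 14.5 and 34.3 in WT (0.26 ± 0.33).

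Col15a1 and Col18a1 carry the fragments known as restin and endostatin. Col15a1 (chromosome 4, 47208161 to 47313167, plus strand) was at 2259, 1055, 1976, 1710 and 604 in KO and at 1399, 688, 722, 3119 and 1567 in WT (0.10 ± 0.44). Col18a1 (chromosome 10, 77052178 to 77166548, minus strand) was at 2392, 2657, 2490, 2606 and 1234 in KO and at 1749, 1402, 1389, 4889 and 2860 in WT (0.019 ± 0.35). In both, KO5 was the lowest of all libraries and WT4 the highest. Endothelial markers moved little between groups, with a median of 0.025 over 8 genes and 0 at a limma p under 0.05, and pericyte markers had a median of -0.23 over 6 with 0 at that level.

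Among the 17 other collagens, the median was -0.055, with 7 fitted higher and 10 lower. In limma 0 passed after adjustment. An unadjusted limma p under 0.05 was found for 4 of the 17, 1 higher and 3 lower, against 6.49% of all genes (2.82% higher and 3.67% lower). These 4 genes, Col6a5, Col23a1, Col20a1 and Col17a1, were all low, under 200 normalized counts on average. The median of other collagens was -0.34 once the prefix was fitted too, -0.67 and -0.075 in prefixed and unprefixed libraries alone, and -0.53 without WT2, WT3 and WT5.

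Col6a5, a type VI chain known from skin, was the 1 collagen whose KO and WT libraries did not overlap. Its position is chromosome 9, 105856078 to 105960643 (minus strand). It was at 15.4, 10.3, 4.22, 11.2 and 1.75 normalized counts in KO1 to KO5 and at 46.5, 41.9, 17.5, 25.3 and 46.5 in WT1 to WT5. The 5 KO values all lay under the 5 WT values, as in 0.734% of all genes tested (1.42% in either direction), and the nearest values were 15.4 in KO1 and 17.5 in WT3. The KO values rest on 11, 11, 3, 11 and 2 reads and the WT values on 56, 46, 18, 35 and 42. The difference was -2.10 ± 0.50 (SE, 95% interval -3.19 to -1.01, limma adjusted p = 0.418). edgeR gave an adjusted p of 0.373 and DESeq2 one of 0.0178, so the call depended on the test.

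Leaving out any 1 library, the difference of Col6a5 stayed between -2.36 and -1.72. Fitting the prefix too gave -2.86, and prefixed and unprefixed libraries alone gave -3.52 and -2.19. Without WT2, WT3 and WT5 it was -2.15. Keratinocyte markers, described above, had a median of -4.62 over 7 genes. Muscle and adipocyte markers had medians of -1.70 over 7 and -1.60 over 6, with 0 and 1 at an unadjusted limma p under 0.05. Their part in the result was not tested. Its neighbour Col6a6, 27917 bases away, was at 31.3 ± 20.4 and 45.2 ± 23.7 (-0.56 ± 0.46). The promoter window of Col6a5 (chr9:105960594-105960893, minus strand) is shown as that of the collagen with the clearest separation of the groups.
Col6a5: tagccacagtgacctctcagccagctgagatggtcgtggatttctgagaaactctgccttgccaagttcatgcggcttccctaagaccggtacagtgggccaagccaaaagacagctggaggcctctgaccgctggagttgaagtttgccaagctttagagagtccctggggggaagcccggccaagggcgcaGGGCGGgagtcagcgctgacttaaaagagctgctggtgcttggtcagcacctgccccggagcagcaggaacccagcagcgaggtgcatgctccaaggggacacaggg
It held 1 match to GGGCGG and 0 to CCAAT and TATAAA.

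The major type VI chains, which form beaded filaments around cells, overlapped between the groups; a difference from Col6a5 was not tested. Col6a1 (chromosome 10, 76708792 to 76726168, minus strand) was at 3322, 2717, 2417, 2613 and 1598 in KO and at 3245, 1749, 2323, 5464 and 3301 in WT (-0.28 ± 0.29). Col6a2 on the same chromosome differed by -0.25 ± 0.29. Col6a3 (chromosome 1, 90765923 to 90843971, minus strand) was at 7287, 3003, 3560, 4073 and 2175 in KO and at 5991, 1595, 3737, 4930 and 4465 in WT (-0.038 ± 0.37). The 95% intervals of these 3 differences ran from -0.90 at the lowest to 0.77 at the highest.

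The membrane-spanning collagens Col23a1 and Col17a1 were both fitted lower in KO, with KO and WT libraries that overlapped. Col23a1 (chromosome 11, 51289920 to 51583918, plus strand) was at 30.8, 27.2, 28.1, 19.4 and 24.4 in KO and at 54.0, 43.7, 89.3, 30.4 and 45.4 in WT. The groups met only at KO1 and WT4, and the KO values were the tighter set. The difference was -0.92 ± 0.30 (limma adjusted p = 0.599, DESeq2 adjusted p = 0.183). Fitting the prefix too gave -0.90, prefixed and unprefixed libraries alone gave -1.01 and -0.78, and leaving out WT2, WT3 and WT5 gave -0.64.

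Col17a1, the hemidesmosome collagen that ties basal epithelial cells to their basement membrane, was fitted lower in KO. Its position is chromosome 19, 47646344 to 47692094 (minus strand). It was at 39.1, 42.2, 53.4, 74.6 and 48.0 in KO and at 39.1, 74.7, 572, 79.6 and 170.6 in WT, with the highest values in WT3 and WT5. In WT2, the other library high in keratinocyte markers, it was no higher than in WT4. The difference of -1.22 ± 0.56 (limma adjusted p = 0.760) was -0.15 without WT2, WT3 and WT5. In prefixed libraries alone it was -1.15, in unprefixed ones -1.73.

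Col7a1, which forms the anchoring fibrils under epithelia, was chosen for description after its values were seen, since it is known from the same epithelial junction. Its position is chromosome 9, 108953586 to 108984875 (plus strand). It was at 3989, 2533, 4551, 2268 and 1482 in KO and at 1530, 914, 1882, 2265 and 2357 in WT. KO1, KO3 and KO2 were above every WT library, while KO4 and KO5 lay inside the WT range. The difference of 0.69 ± 0.33 (limma adjusted p = 0.779) had the opposite sign to that of Col17a1. Fitting the prefix too gave 0.18 for Col7a1, and prefixed and unprefixed libraries alone gave -0.076 and 0.44.

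Col20a1, a fibril-associated collagen, was fitted higher in KO. Its position is chromosome 2, 180986535 to 181018363 (plus strand), and it shares 79 exonic bases with an overlapping transcript on the same strand. It was at 64.3, 60.02, 114, 24.5 and 48.0 in KO and at 28.3, 23.7, 44.7, 20.3 and 22.2 in WT. KO4 lay inside the WT range and the other 4 KO libraries above it. The difference was 1.03 ± 0.37 (limma adjusted p = 0.674, DESeq2 adjusted p = 0.219). Fitting the prefix too gave 1.05, and prefixed and unprefixed libraries alone gave 0.76 and 1.34.

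Among the other collagens, Col12a1 was the highest per length, followed by Col6a1 and Col8a1. Col12a1 (chromosome 9, 79598991 to 79718831, minus strand), which cross-bridges type I fibrils, was at 17509, 13933, 10093, 10364 and 11637 in KO and at 19148, 3916, 13154, 9661 and 13323 in WT (0.25 ± 0.37). Col8a1 (chromosome 16, 57624258 to 57754737, minus strand), a network collagen of vessel walls, was at 2901, 3429, 2340, 2674 and 2978 in KO and at 5446, 1045, 2520, 3398 and 3162 in WT (0.053 ± 0.34). In both the KO libraries were closer together than the WT libraries, which were stretched by a high WT1 and a low WT2. The 13 collagens outside the rule for named genes had differences from -0.56 to 0.69 and limma adjusted p of 0.779 and above.

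In WT2, 3 collagens were at their highest. Col14a1, a fibril-associated type, was highest there at 2290 and lowest in WT3 at 333. Col28a1 and Col6a6 were at 174 and 78.3 there, while 14 collagens were at their lowest in the same library. The 3 genes were chosen after their values were seen. Of the 10 fibroblast markers, 7 were highest in the same library: Dpt was at 2664 in WT2 against 77.7 to 852 in the other 9 libraries, Pi16 at 1204 against 48.9 to 411, and Dcn at 9178. Fap, at 500 in WT2, was a little higher in KO4, Pdgfra was second lowest there at 1260, and Pdgfrb was at its lowest of the 10 libraries, at 311. Over all 10 fibroblast markers the mean log2 level was 10.42 in WT2, and it ran from 8.18 to 9.83 in the others. The median difference of the fibroblast markers was -0.062, with 3 fitted higher and 7 lower and 0 at a limma p under 0.05.

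**Figure D4:**
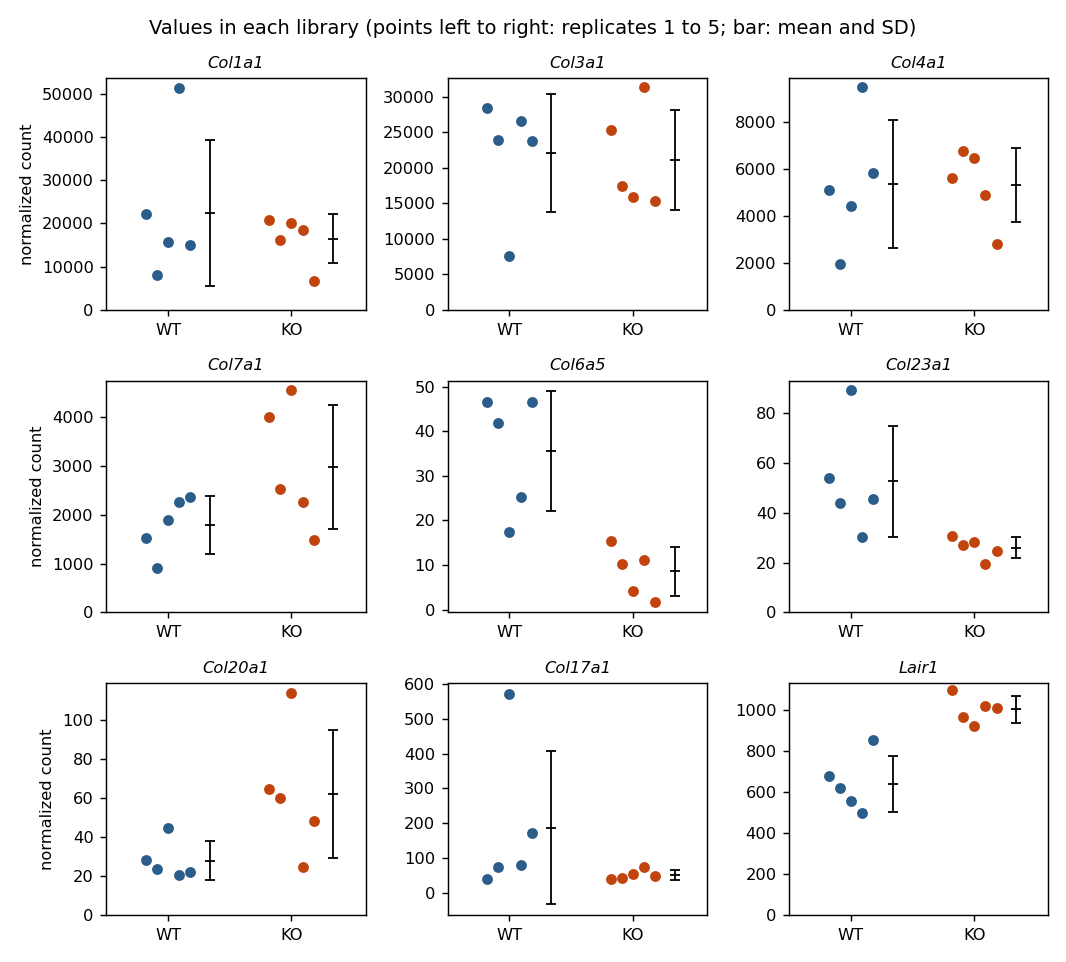
Normalized counts of 8 collagens and of Lair1 in each library (points, replicates 1 to 5 from left to right), with the mean and SD of the 5 libraries of each group. Col6a5 and Lair1 do not overlap between groups, Col23a1 overlaps only at KO1 and WT4, and Col1a1, Col3a1 and Col4a1 overlap.

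**Figure D5:**
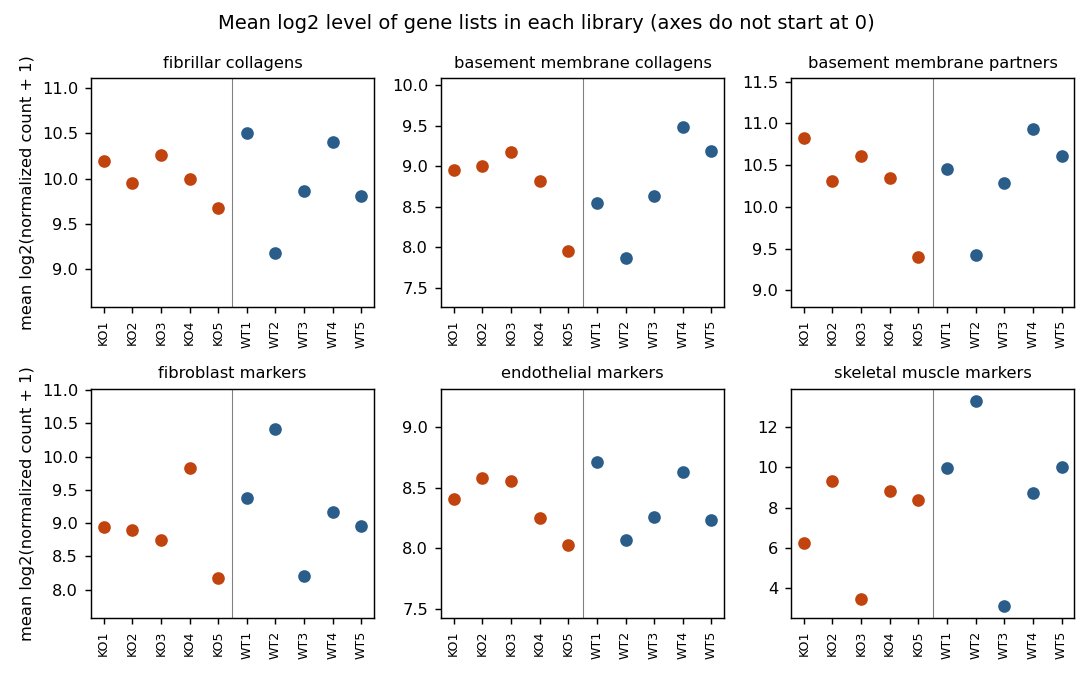
Mean log2(normalized count + 1) of 6 gene lists in each library, KO in orange and WT in blue, on axes that do not start at 0. Fibrillar collagens, basement membrane collagens and the laminins and nidogens that partner them are low in WT2 and KO5, whereas fibroblast and skeletal muscle markers are highest in WT2.

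Genes that fold, process and cross-link collagen showed no more calls than the collagens themselves. Of 19 genes for folding and modification, 11 were fitted higher and 8 lower, with a median of 0.024, and limma, edgeR and DESeq2 each called 0. At an unadjusted limma p under 0.05 there were 2 of 19, against 6.49% of all genes. P3h2, a prolyl hydroxylase of type IV collagen, was at 21.9 ± 9.85 in KO and 46.8 ± 19.7 in WT (-1.10 ± 0.37). Plod2, which hydroxylates lysines for stable cross-links, was at 2113 ± 469 and 1394 ± 428 (0.62 ± 0.23), and P4ha2, a prolyl hydroxylase, was at 318 ± 46.4 and 242 ± 75.2.

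Of 12 genes for processing and cross-linking, 6 were fitted higher and 6 lower, with a median of -0.0014. All 3 tools called 0, and 3 of 12 had an unadjusted limma p under 0.05, all lower, against 3.67% of all genes. Loxl4, a lysyl oxidase, was at 411 ± 69.5 in KO and 618 ± 153 in WT (-0.57 ± 0.20). Tll1, a procollagen protease, differed by -0.72 ± 0.31, and Pcolce2, an enhancer of such proteases, by -0.61 ± 0.28. Their adjusted p values in limma were 0.674, 0.750 and 0.759.

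Matrix partners had 0 calls as well. Of 17 genes for fibril-associated and other matrix proteins, 5 were fitted higher and 12 lower (median -0.097). Of 15 basement membrane partners, 7 were fitted higher and 8 lower (median -0.012). There were 0 calls in limma, edgeR or DESeq2 in either list. At an unadjusted limma p under 0.05 there was 1 of 17 in the first list, against 2.82% of all genes higher, and 0 of 15 in the second. It was Fbln2, which encodes fibulin-2, at 6243 ± 1396 in KO and 4119 ± 1414 in WT (0.65 ± 0.27). Fmod, a proteoglycan that steers fibril growth, was at 26.2 ± 12.8 and 63.1 ± 48.2 (-1.09 ± 0.52). Tnxb, a tenascin of connective tissue, was at 451 ± 371 and 882 ± 443 (-1.71 ± 0.89), with 14.0 in KO5. Without KO5 the difference of Tnxb was -0.71, and in prefixed libraries alone, where KO5 stands for the KO group, it was -5.69. The laminin chains Lama3 and Lamb3, of epithelial basement membranes, differed by -0.92 and -0.37, and Lama1 by 0.55.

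Among 9 collagen receptors tested, Lair1 was the 1 whose groups did not overlap. Lair1 encodes an inhibitory receptor of leukocytes whose ligands are collagens. It was at 1098, 964, 922, 1017 and 1006 in KO1 to KO5 and at 676, 619, 555, 495 and 852 in WT1 to WT5. The 5 KO values all exceeded the 5 WT values, as in 0.684% of all genes tested. The difference was 0.67 ± 0.17 (limma adjusted p = 0.418, edgeR 0.373, DESeq2 0.0427), so it passed in DESeq2 only, which called 0.145% of all genes as higher. Fitting the prefix too gave 0.51, prefixed and unprefixed libraries alone gave 0.79 and 0.23, and leaving out WT2, WT3 and WT5 gave 0.79.

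Leukocyte markers, genes of the cells that carry Lair1, differed unevenly. Their median difference over 4 genes was 0.47, with 1 at an unadjusted limma p under 0.05, and Ptprc, the pan-leukocyte marker CD45, was at 3436 ± 196 in KO and 2644 ± 501 in WT (0.40 ± 0.17). Cd52 and Coro1a differed by 0.58 and 0.54, and Laptm5 by -0.091. The mean log2 level of the 4 markers was 10.58 ± 0.221 (SD) in KO and 10.22 ± 0.335 in WT. It was 10.22, 10.75, 10.50, 10.72 and 10.69 in KO1 to KO5. In WT1 to WT5 it was 9.997, 10.72, 9.94, 10.42 and 10.05. The part of these markers in the result for Lair1 was not tested. The next by p among the receptors were Ddr2, a kinase that binds fibrillar collagen, at -0.35 ± 0.21, and Itga11, a fibroblast integrin, at -0.41 ± 0.38. Of the 9 receptors 4 were fitted higher and 5 lower, with a median of -0.012.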

How the data were processed

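The deposited table holds 1 signal value per gene and library, a normalized count. Dividing each column by its smallest step gave whole reads for 100% of values (within 0.0001 of a read), and the implied size factors equalled those of the median-of-ratios method. The authors' other steps are known only in part: bcl2fastq 2.17 and build GRCm38 are named in the submitters' processing notes. Per the labels' protocols, RNA was depleted of ribosomal RNA and fragmented, and the primers carried unique molecular identifiers. Whether these were used in counting, the aligner, the counter, the strand setting and the gene annotation are not given in the sources used here. The lowest gene total in the table was 101 reads. Of 18047 identifiers, 17961 matched a symbol in GENCODE M21 and 86 did not.

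Differences are KO minus WT of log2(normalized count + 1), fitted with limma 3.58.1 (R 4.3.3, intensity trend) to the 17975 genes whose mean reached 10 normalized counts. The pseudocount understates the change of low genes. Adjusted p-values are Benjamini-Hochberg over all genes tested, with a threshold of 0.05. edgeR 4.0.16 (quasi-likelihood) and DESeq2 1.42.0 used the recovered reads. Tested on simulated data with 200 changed genes of 17975, limma recovered 22.1% of genes changed by 1 log2 unit and 81% of those changed by 2, with 6.28% false calls. The changed genes were drawn at random from all genes. Recovery was not measured for collagens, which varied more within groups than most genes. Chain ratios were compared by exact permutation in SciPy 1.17.1. Intervals of read shares are Wilson intervals at 95%.

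Values by library are given for the 4 genes with the smallest limma p and the 4 with the highest level per kilobase in each family, and for any called or non-overlapping gene. In pathway lists, called genes and the 3 with the smallest p are named. The genes and lists were chosen with earlier results of these data known. Alternatives changed the pseudocount, filter, scaling, tool, libraries and covariates. A check of the targeted gene in each library is not reported here.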

Additional observations from a re-analysis of the deposited data

Results flagged for a closer look

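In 5 of 42 groups of 5 libraries examined for the named collagens, 1 library lay far from the other 4. Chance flags about 1 in 20 groups, and no cause was tested. Col3a1, the type III chain, was low in WT3 at 7592 normalized counts. Col18a1, a basement membrane collagen, was low in KO5 at 1234. Col11a2, a minor fibrillar chain, was high in KO3 at 140.6. Col4a4 was high in KO1 at 43.3. Col17a1, the hemidesmosome collagen, was high in WT3 at 571.9, the library with the highest sum of keratinocyte markers.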

How the results depend on the processing

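In 24 of 25 alternatives 0 collagens passed the threshold, and DESeq2 called 1, Col6a5. Over all genes 1 passed in the main analysis. DESeq2 called 121, and unprefixed libraries alone gave 52 with a single WT library, assumed to vary like the KO group. Leaving out 1 library gave 0 to 3. Averaging WT2 and WT5, leaving out WT2, WT3 and WT5, and keeping prefixed libraries alone each gave 0. The numbers of the labels did not pair the libraries, since same-numbered libraries correlated between -0.23 and 0.52 in their deviations and 1 of 5 correlated best with its own number. With a replicate block 1 gene passed, and 0 collagens. A filter at a mean of 50 left Col4a4, Col4a6, Col6a5, Col6a6, Col8a2, Col9a3, Col11a2, Col20a1 and Col23a1 untested.

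Of 22 collagens described, 6 kept their direction in every alternative that tested them (Col11a2, Col6a1, Col6a5, Col17a1, Col20a1 and Col23a1), and 16 changed sign at least once. The main differences of these 16 were 0.69 or less in size, and the cause was not tested. Medians moved by more than the spread in 3 settings. Without WT2, WT3 and WT5 they were -0.45 for all collagens and -0.53 for other collagens, and with the prefix fitted -0.34 for other collagens. In prefixed libraries alone they were -0.61 for all, -0.71 for basement membrane and -0.67 for other collagens. The level of Col1a1 over Col3a1 fell from 1.35 to 0.846 by principal transcript.

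Sign changes by setting were as follows. Upper quartile scaling gave 0.00044 for Col4a2 and 0.016 for Col6a3. Removing GC and length trends gave 0.13 for Col1a2, 0.15 for Col4a2 and 0.15 for Col6a3. edgeR gave -0.063 for Col3a1, -0.0078 for Col4a1, -0.019 for Col4a5, -0.11 for Col18a1 and -0.12 for Col8a1. DESeq2 gave -0.067, -0.013, -0.024, -0.11 and -0.12 for the same 5 genes. Averaging WT2 and WT5 gave -0.078 for Col4a1, -0.031 for Col4a5, -0.00089 for Col15a1, -0.031 for Col18a1 and -0.15 for Col8a1. Leaving out WT2, WT3 and WT5 gave -0.44 for Col3a1, -0.027 for Col5a2, -0.45 for Col4a1, -0.29 for Col4a5, -0.61 for Col15a1, -0.41 for Col18a1, -0.60 for Col8a1, -0.13 for Col12a1 and -0.43 for Lama1. Fitting the prefix gave -0.23 for Col3a1, -0.33 for Col4a1, -0.36 for Col4a5, -0.45 for Col15a1 and -0.44 for Col18a1. Prefixed libraries alone gave -0.33 for Col3a1, 0.10 for Col24a1, -0.68 for Col4a1, -0.26 for Col4a5, -1.01 for Col15a1, -0.71 for Col18a1 and -0.076 for Col7a1. Unprefixed libraries alone gave 0.34 for Col1a1, 0.14 for Col1a2, -0.13 for Col3a1, -0.085 for Col5a2, 0.087 for Col4a2, -0.24 for Col4a4 and -0.45 for Col4a5. They also gave -0.17 for Col18a1, -0.17 for Col8a1, -0.076 for Col12a1, -0.10 for Plod2, 0.41 for Fmod and 1.05 for Itga11.

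Leaving out 1 library at a time, differences ran from -0.57 to 0.11 for Col1a1, -0.24 to 0.12 for Col1a2, -0.34 to 0.13 for Col3a1, -0.22 to 0.34 for Col4a1, -0.40 to 0.24 for Col4a2 and -0.20 to 0.38 for Col4a5. They ran from -0.44 to 0.0089 for Col4a6, -0.12 to 0.43 for Col15a1, -0.14 to 0.31 for Col18a1, -0.35 to 0.15 for Col6a3, -0.29 to 0.30 for Col8a1 and -0.11 to 0.46 for Col12a1. The log2 ratio of Col3a1 to Col1a1, KO minus WT, ran from -0.018 to 0.64 and that of Col6a1 to Col6a2 from -0.077 to 0.066. Col6a5 rests on 2 to 11 reads in each KO library.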
